A study of Homo sapiens with 32 samples.

Results

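The genes described here belong to the ATF4 stress response and the unfolded protein response. With earlier results of these data known, they were chosen by name from a list of 35 genes. Of these, 20 were measured among the 14884 genes that carried 1 symbol on the arrays. Only VLDLR-AS1 had more than 1 array feature (2), and the one brightest on average over the 32 arrays was taken. The measured genes were 12 of 19 listed genes of the ATF4 arm (ATF4, ATF3, ATF5, DDIT3, TRIB3, STC2, ASNS, CTH, PSAT1, PHGDH, PSPH and SHMT2), 7 of 15 genes of endoplasmic reticulum stress (EIF2AK3, ERN1, ATF6, XBP1, CREB3L2, SDF2L1 and CALR) and the antisense RNA VLDLR-AS1. Another 15 (CEBPB, CEBPG, NUPR1, CHAC1, PPP1R15A, MTHFD2, ALDH1L2, HSPA5, HSP90B1, DNAJB9, DNAJC3, HERPUD1, PDIA4, PDIA6 and EDEM1) are not analysed here, so the chaperones and degradation factors of the endoplasmic reticulum were represented by 2 genes of 10.

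All cells were K-562, an established human line of chronic myeloid leukemia that carries the BCR-ABL1 fusion kinase, the target of imatinib and nilotinib. Expression was read on 32 GeneChip arrays in 4 groups of 8: treatment-naive cells, cells resistant to 0.5 µM imatinib (low imatinib), cells resistant to 2 µM imatinib (high imatinib) and cells resistant to 0.1 µM nilotinib. Each resistance had 2 biological replicates, here line 1 and line 2, with 4 technical arrays each; the naive arrays came as 4 lettered S and 4 lettered K, letters that the labels do not explain. Resistance was built up in steps of rising drug concentration. The growth text is one and the same for all samples and names a medium lacking both drugs, so it is unclear whether the resistant cells were under drug when harvested, and the labels do not say whether a line is 1 clone. Levels are given as log2 intensity, with naive S before naive K and line 1 before line 2, and differences as log2 differences.

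ATF4 is a transcription factor whose translation rises when the initiation factor eIF2 is phosphorylated by stress kinases, among them the endoplasmic reticulum sensor PERK, the amino acid sensor GCN2, and the heme-regulated kinase that is abundant in erythroid cells. With partners such as CHOP it switches on amino acid synthesis, transport and feedback genes. Misfolded protein in the endoplasmic reticulum also acts through the sensors IRE1, which splices XBP1 messenger RNA, and ATF6, which is cut to release a transcription factor; both raise chaperones and degradation factors. Much of this control lies in translation, splicing and cleavage, which these arrays do not measure.

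To show the sequences through which such factors are known to act, the 250 bases before each gene's listed starts were searched on both strands in RefSeq sequence (GRCh38.p14), where 18 of the 20 genes had a window. The motifs were TGATGNAA, a C/EBP-ATF response element that ATF4 can bind with C/EBP partners; CCAAT, any 9 bases and CCACG, the endoplasmic reticulum stress element bound by ATF6 and XBP1; ATTGG, 1 base and CCACG, its second form; and TGACGTCA, the cyclic AMP response element. They were held by 3.14%, 0.074%, 0.0513% and 1.65% of 35116 windows. The matches are shown in capitals within 60 bases of the gene's strand. They tell which of the genes described below carry the letters of either branch near a listed start. The response element was found in ATF3 (chr1:212565190-212565249, plus strand) and ASNS (chr7:97872443-97872502, minus strand). The motif's last base was 184 and 61 bases before the listed start of that window, at positions 212565407 and 97872408. The 18 genes had 28 windows, so a gene could have several listed starts. Which start these cells use was not tested.
ATF3: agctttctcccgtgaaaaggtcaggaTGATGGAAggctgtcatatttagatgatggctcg
ASNS: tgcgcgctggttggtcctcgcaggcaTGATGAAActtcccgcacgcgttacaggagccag
The stress element stood in XBP1 (chr22:28800583-28800642, minus strand) and, on the opposite strand, in CALR (chr19:12938363-12938422, plus strand); the second form stood, on the opposite strand, in SDF2L1 (chr22:21642089-21642148, plus strand).
XBP1: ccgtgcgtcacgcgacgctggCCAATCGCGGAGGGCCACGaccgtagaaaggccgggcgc
CALR: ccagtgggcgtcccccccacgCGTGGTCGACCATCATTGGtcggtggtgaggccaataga
SDF2L1: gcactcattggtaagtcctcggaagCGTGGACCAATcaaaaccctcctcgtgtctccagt
CREB3L2 held the cyclic AMP response element (chr7:138002232-138002291, minus strand).
CREB3L2: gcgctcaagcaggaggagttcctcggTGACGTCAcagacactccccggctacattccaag
A match says only that these letters are there. Between the lines resistant to high imatinib, line 2 minus line 1 was -0.63 for XBP1, -0.16 for CALR and 0.99 for SDF2L1. It was -0.62 for ATF3, -0.76 for ASNS and 0.07 for CREB3L2. CALR and CREB3L2 did not pass the test described below. Whether the motifs bear on these levels was not tested.

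The arrays were read as a check on the cells. The erythroid factors GATA1, KLF1, TAL1 and LMO2 were at a mean of 9.42, 8.53, 7.34 and 7.33, above 96.7%, 90.7%, 72.0% and 71.9% of genes, and the fibroblast gene DCN was at 4.26, above 4.0%. Among markers of other blood cells, CD14 was at 5.62, NKG7 at 6.46 and LYZ at 7.04, above 23.3%, 49.0% and 65.0%. The epithelial markers EPCAM and KRT18 were at 7.84 and 9.77, above 81.9% and 97.9%, and set means of EPCAM ran from 5.86 to 9.26 and of LYZ from 5.90 to 8.35. A technical axis, the leading component of the differences among arrays within sets, was uneven over the groups, with mean scores of -20.8 and -25.1 in the naive sets and between -2.13 and 21.2 in the resistant lines. Results were also computed with it taken out of the data. Because its scores set the naive sets apart from the resistant lines, this also takes out any difference between them along the axis. A technical part and a part of resistance cannot be told apart here.

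**Figure D1:**
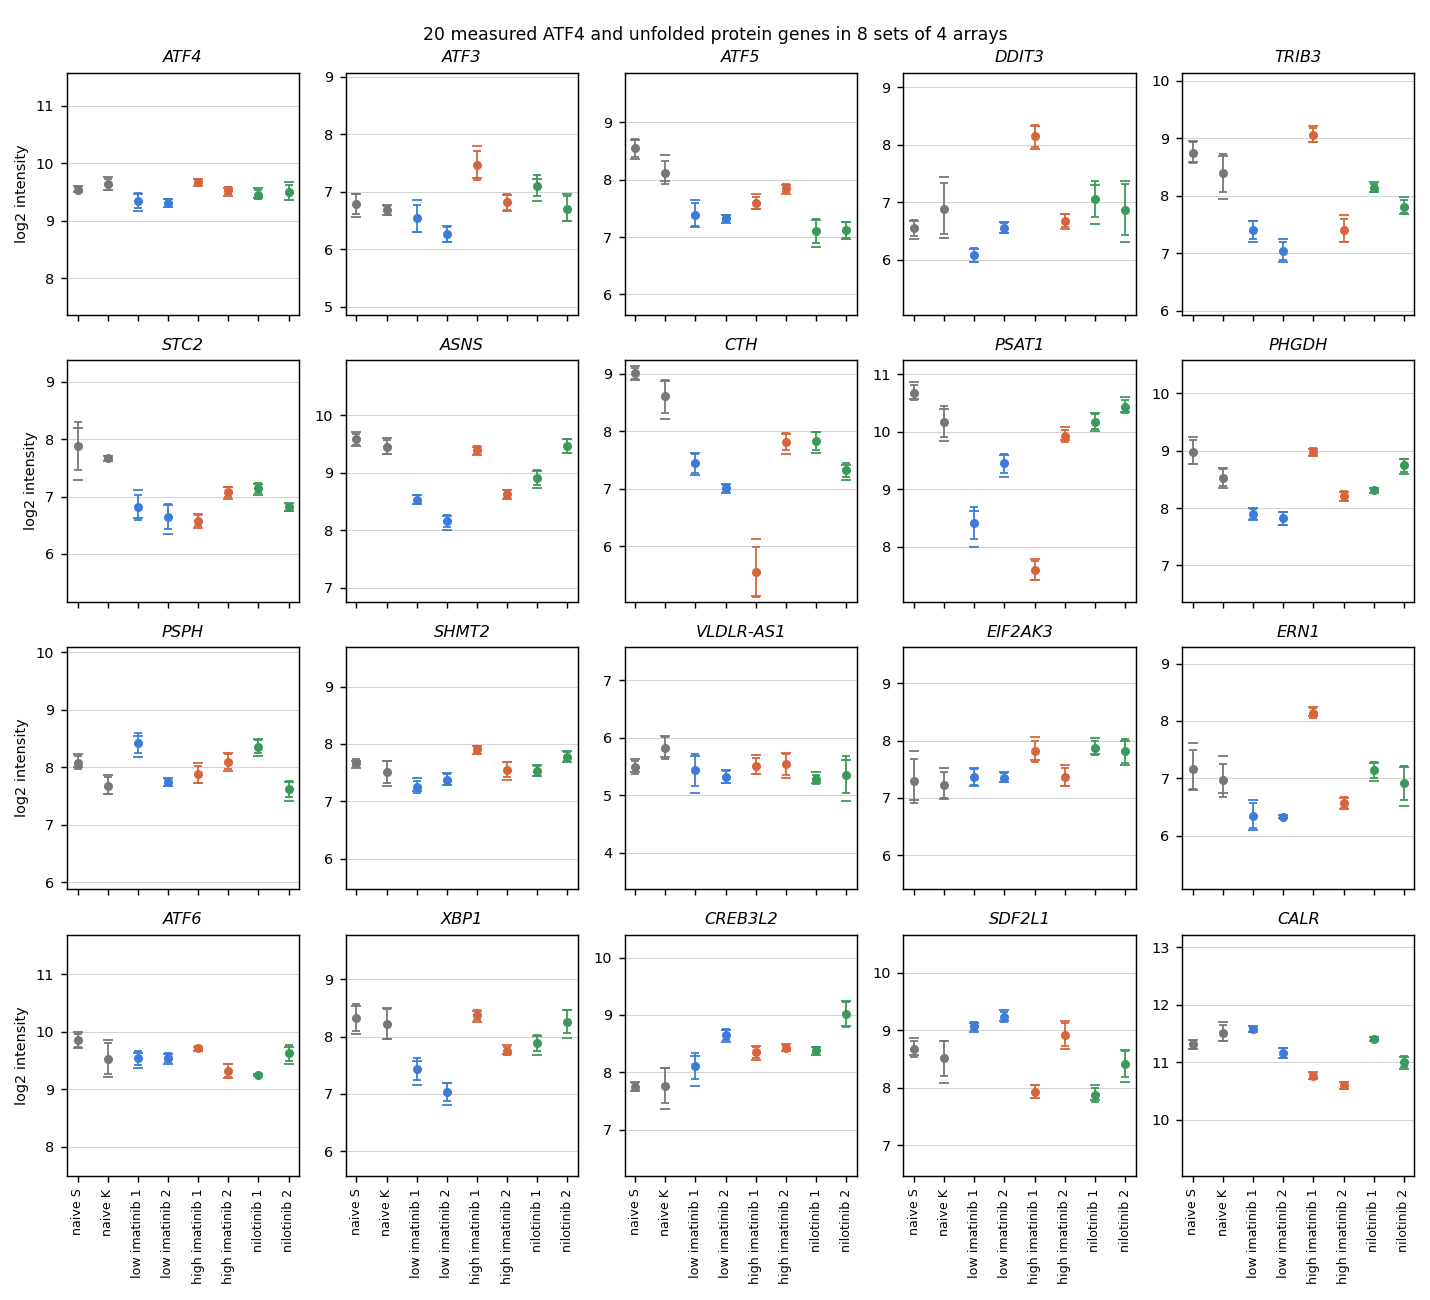
Log2 intensity (vertical axis) of the 20 measured genes in the 8 sets (horizontal axis; grey naive, blue low imatinib, orange high imatinib, green nilotinib). Points are means of 4 technical arrays, bars are ± 1 SD and short dashes are the lowest and highest array; every panel spans at least 4.2 log2 units so that ranges can be compared, from 0.37 for ATF4 to 3.46 for CTH.

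ATF4 messenger RNA itself had the narrowest range of the 20 genes, and several genes of the ATF4 arm had wide ones. ATF4 was at 9.54 in naive S and 9.63 in naive K, at 9.35 and 9.31 under low-imatinib resistance, at 9.68 and 9.53 under high-imatinib resistance and at 9.45 and 9.49 under nilotinib resistance. That is a range of 0.37, and only 10.9% of all genes had a smaller one. By contrast CTH ranged over 3.46 (wider than 99.5% of genes), PSAT1 over 3.08 (8.48-fold), DDIT3 over 2.07 and TRIB3 over 2.03; in the endoplasmic reticulum arm ERN1 ranged over 1.80. Other genes of the ATF4 arm had ordinary ranges, 0.80 for PSPH and 0.66 for SHMT2, wider than 63.5% and 50.3% of genes. The SD over the 4 arrays of a set had a median of 0.13 and ran from 0.02 to 0.44.

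The widest contrast lay between the lines resistant to 2 µM imatinib. In line 1, ATF4, ATF3, DDIT3, TRIB3, PHGDH, SHMT2, ERN1 and XBP1 had their highest level of all 8 sets, and STC2, CTH and PSAT1 their lowest. Line 1 was thus the highest set for 8 of 20 genes, where it was the highest for 10.2% of all genes; the count was 6 after quantile normalization and 6 with the technical axis taken out, where ATF4, PHGDH and XBP1 were no longer highest in line 1 and EIF2AK3 was. Low-imatinib line 2 stood at the other end, with the lowest level of 7 genes (ATF4, ATF3, TRIB3, ASNS, PHGDH, ERN1 and XBP1), against 9.8% of all genes, and 6 to 8 under the other scalings.

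Between the high-imatinib lines, 14 of 20 genes passed limma's test over the arrays at an adjusted p under 0.05 (Benjamini-Hochberg, 14884 genes). Against line 1, 4 genes were higher in line 2 (background 19.8% of all genes) and 10 were lower (background 13.2%). Line-against-line tests set 4 technical arrays against 4 others, so their p-values measure technical spread only and say nothing of how lines of the same resistance vary in general. The 14 genes passed with the same direction after quantile normalization, with array medians made equal, with the mean of all features, without the dimmest 40% of genes and with the technical axis taken out, on which the lines scored -2.13 and 2.73. Leaving out any 1 of their 8 arrays kept 13 or 14 of them, EIF2AK3 being the 1 lost without the first array of line 1 or the third array of line 2.

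Feedback and CHOP-linked genes were among those higher in line 1. TRIB3 encodes a pseudokinase induced by ATF4 and CHOP that dampens ATF4 and AKT signalling. It was at 8.75 and 8.39 in naive S and K, 7.40 and 7.04 under low-imatinib resistance, 9.06 and 7.40 under high-imatinib resistance and 8.14 and 7.81 under nilotinib resistance. High-imatinib line 1 (SD 0.12, n = 4 technical arrays, 8.93 to 9.21) thus lay near naive S, while line 2 (SD 0.20, 7.19 to 7.66) lay with the low-imatinib lines, and the arrays of both lines did not overlap. The difference, line 2 minus line 1, was -1.66 ± 0.13 (SE, limma adjusted p = 1.07e-12, 3.16-fold lower).

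DDIT3 encodes CHOP, the partner of ATF4 that turns a lasting stress response towards cell death. It was at 6.55 and 6.89 in the naive sets, 6.08 and 6.55 under low-imatinib resistance, 8.15 and 6.68 under high-imatinib resistance and 7.06 and 6.87 under nilotinib resistance. High-imatinib line 1 stood alone, since its lowest array (7.93) was above the highest array of any other set (7.44, in naive K). Line 2 minus line 1 was -1.47 ± 0.17 (limma adjusted p = 2.09e-08). ATF3, a stress-induced repressor and partner of other bZIP factors, was at 6.79 and 6.68 in naive cells, 6.54 and 6.26 under low-imatinib resistance, 7.46 and 6.83 under high-imatinib resistance and 7.11 and 6.71 under nilotinib resistance. It was lower in line 2 than in line 1 of the high-imatinib resistance by a difference of -0.62 ± 0.13 (limma adjusted p = 0.000219).

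ERN1 encodes IRE1, the sensor that splices XBP1. It shared the highest set with TRIB3, DDIT3 and ATF3, with 7.16 and 6.97 in the naive sets, 6.35 and 6.33 under low-imatinib resistance, 8.14 and 6.58 under high-imatinib resistance and 7.15 and 6.92 under nilotinib resistance. All 4 arrays of high-imatinib line 1 (8.09 to 8.25) lay above all other arrays, of which the highest was 7.61. Line 2 minus line 1 was -1.56 ± 0.14 (limma adjusted p = 1.03e-10). XBP1, its substrate, differed less: 8.33 and 8.22 in naive cells, 7.43 and 7.03 under low-imatinib resistance, 8.38 and 7.75 under high-imatinib resistance and 7.88 and 8.26 under nilotinib resistance. High-imatinib line 1 and nilotinib line 2 were at the naive level, and line 2 minus line 1 of high imatinib was -0.63 ± 0.13 (limma adjusted p = 0.000145). The features measure XBP1 messenger RNA as a whole, not its spliced form.

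Serine and cysteine enzymes did not move as a block. Serine is made from a glycolytic intermediate by PHGDH, PSAT1 and PSPH in that order, SHMT2 passes its carbon to folate in mitochondria, and CTH makes cysteine at the end of the transsulfuration route. PSAT1, the aminotransferase of the second step, was at 10.68 and 10.18 in naive S and K, 8.42 and 9.45 under low-imatinib resistance, 7.59 and 9.93 under high-imatinib resistance and 10.18 and 10.44 under nilotinib resistance. High-imatinib line 1 (SD 0.16) was the lowest set, below low-imatinib line 1, and both nilotinib lines lay within the range of the naive sets. Line 2 minus line 1 of high imatinib was 2.33 ± 0.13 (limma adjusted p = 1.97e-16), a 5.04-fold higher level in line 2. Between the low-imatinib lines it was 1.04 ± 0.13 (limma adjusted p = 2.60e-07), again higher in line 2.

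CTH was at 9.01 and 8.61 in the naive sets, 7.44 and 7.01 under low-imatinib resistance, 5.55 and 7.82 under high-imatinib resistance and 7.83 and 7.33 under nilotinib resistance. All 24 resistant arrays (5.14 to 7.98) were below all 8 naive arrays (8.21 to 9.13). These arrays are technical repeats of 6 lines and 2 naive sets. By the looser rule of set means, 15.9% of all genes were below both naive sets in all 6 lines. The share of all genes separated array by array was not counted. High-imatinib line 1 (SD 0.43) was lower than every other set. Line 2 minus line 1 was 2.27 ± 0.14 (limma adjusted p = 1.06e-14), which is 4.82-fold. PHGDH, the first enzyme of serine synthesis, ran the other way between these lines: it was at 8.97 and 8.53 in naive cells, 7.90 and 7.82 under low-imatinib resistance, 8.98 and 8.21 under high-imatinib resistance and 8.31 and 8.74 under nilotinib resistance, and line 2 minus line 1 was -0.77 ± 0.09 (limma adjusted p = 4.55e-08). So within high-imatinib line 1 the first enzyme of the route was level with naive S and the next was at its lowest. PSPH, the last step, had set means between 7.62 and 8.42 with no call between the high-imatinib lines (0.22 ± 0.10, limma adjusted p = 0.0986).

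ASNS, the asparagine synthetase whose promoter is a textbook ATF4 target, was at 9.58 and 9.44 in the naive sets, 8.53 and 8.16 under low-imatinib resistance, 9.40 and 8.63 under high-imatinib resistance and 8.91 and 9.46 under nilotinib resistance. High-imatinib line 1 and nilotinib line 2 were near the naive sets, and the other 4 lines were lower. It was lower in line 2 than in line 1 of high imatinib (-0.76 ± 0.09, limma adjusted p = 1.33e-08) and higher in line 2 than in line 1 of nilotinib (0.56 ± 0.09, limma adjusted p = 7.14e-06). SHMT2 had set means between 7.25 and 7.91 and differed by -0.37 ± 0.09 between the high-imatinib lines (limma adjusted p = 0.00146).

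The 2 chaperone-type genes had different patterns, with r = -0.84 for SDF2L1 and -0.29 for CALR against ERN1 over the 8 set means. SDF2L1, a luminal partner of endoplasmic reticulum chaperones, was at 8.68 and 8.51 in naive cells, 9.07 and 9.23 under low-imatinib resistance, 7.93 and 8.92 under high-imatinib resistance and 7.87 and 8.41 under nilotinib resistance. It was highest where ERN1 was lowest, in the low-imatinib lines, and it was low in high-imatinib line 1 and nilotinib line 1. Line 2 was higher than line 1 by 0.99 ± 0.12 for high imatinib (limma adjusted p = 6.73e-08) and by 0.53 ± 0.12 for nilotinib (limma adjusted p = 0.00121). CALR encodes calreticulin, the calcium-binding chaperone of glycoproteins. Its set means ran from 10.60 in high-imatinib line 2 to 11.57 in low-imatinib line 1, with line 2 below line 1 by a difference of -0.42 ± 0.08 for low imatinib (limma adjusted p = 0.000173) and -0.39 ± 0.08 for nilotinib (limma adjusted p = 0.000171).

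**Figure D2:**
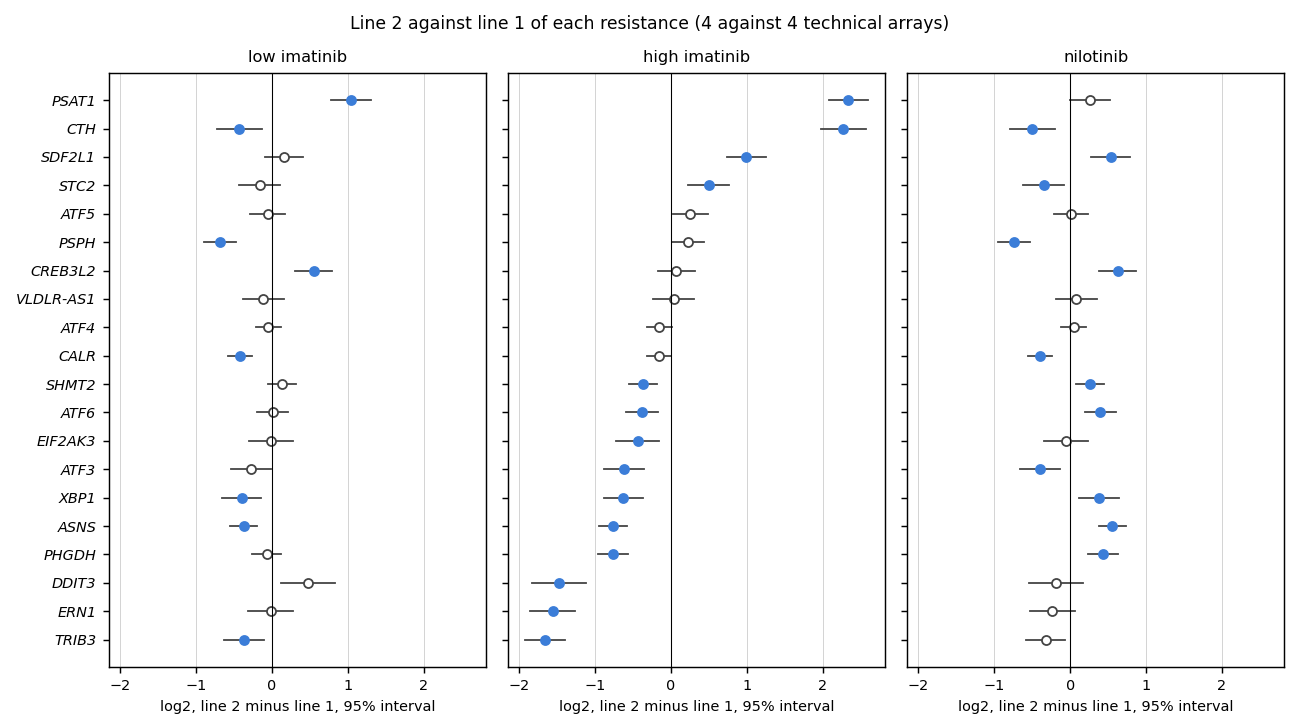
Log2 difference of line 2 minus line 1 (horizontal axis) for the 20 genes (vertical axis, ordered by the high-imatinib value) in each resistance. Points are differences of means of 4 technical arrays, lines are 95% confidence intervals from limma, and filled points have an adjusted p under 0.05; the high-imatinib panel spans from -1.66 for TRIB3 to 2.33 for PSAT1.

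The other pairs of lines differed less. Between the low-imatinib lines 2 genes were higher in line 2 (PSAT1 and CREB3L2; background 8.77%) and 6 were lower (ASNS, CTH, TRIB3, PSPH, XBP1 and CALR; background 9.96%). The calls of CTH and TRIB3 were lost with array medians made equal, and leaving out single arrays kept 5 to 7 of the 8. Between the nilotinib lines 7 were higher in line 2 (ASNS, PHGDH, SHMT2, XBP1, ATF6, CREB3L2 and SDF2L1; background 11.5%) and 5 were lower (ATF3, STC2, CTH, PSPH and CALR; background 16.1%). Here ATF3 and STC2 were lost after quantile normalization, and single-array omissions kept 9 to 11 of the 12.

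The naive sets also differed, with 0 genes higher in K (background 5.9%) and 5 lower (background 6.46%). These were ATF5 (-0.42 ± 0.11), PSAT1 (-0.50 ± 0.13), PHGDH (-0.44 ± 0.09), PSPH (-0.40 ± 0.10) and ATF6 (-0.32 ± 0.10), with limma adjusted p between 0.00244 and 0.0350. The call of ATF6 was lost without 6 of the 8 naive arrays in turn, and that of PSAT1 also without the first K array. With the technical axis taken out 9 genes passed, 7 lower and 2 higher, beside 1399 lower and 1472 higher of all genes.

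Over the 8 set means some genes varied closely together, given here as a description, since the points share sets and the genes were read on the same arrays. Pearson's r was 0.97 between ASNS and XBP1, 0.95 between PHGDH and XBP1 and 0.94 between ASNS and PHGDH, and 0.98, 0.95 and 0.96 over the 7 sets other than high-imatinib line 1. TRIB3 and ERN1 had r = 0.91 with and without that set. For DDIT3 and ERN1 r was 0.91 over 8 sets and 0.69 over 7, and for CTH and PSAT1 0.82 and 0.56, so these pairs rested in part on 1 line. STC2 and CTH had r = 0.90 over 8 sets and 1.00 over 7. SDF2L1 varied against ATF3 (r = -0.87) and ERN1 (r = -0.84), and CREB3L2 against ATF5 (r = -0.80).

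Resistance as such was read by setting all 6 resistant lines against the naive sets, each resistance weighted equally. ATF5 and STC2 fell, and no other gene of the 20 passed. ATF5, a transcription factor related to ATF4 that is itself translated under stress and drives mitochondrial stress genes, was at 8.55 (SD 0.15, n = 4 technical arrays) and 8.12 (SD 0.20) in naive S and K, 7.39 and 7.33 under low-imatinib resistance, 7.59 and 7.85 under high-imatinib resistance and 7.11 and 7.12 under nilotinib resistance. All 24 resistant arrays (6.82 to 7.91) were below all 8 naive arrays (7.97 to 8.68). The share of all genes separated in this way by arrays was not counted. By the looser rule of set means, 15.9% of all genes were below both naive sets in all 6 lines. ATF5 fell by 0.94 ± 0.14 (SE, n = 6 lines against 2 naive sets, 1.91-fold, limma adjusted p = 0.0348, lower in 6 of 6 lines).

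STC2 encodes stanniocalcin 2, a secreted glycoprotein induced by ATF4 under endoplasmic reticulum stress. It was at 7.88 (SD 0.41) and 7.67 (SD 0.04) in the naive sets, 6.81 and 6.65 under low-imatinib resistance, 6.58 and 7.08 under high-imatinib resistance and 7.15 and 6.81 under nilotinib resistance. Again no resistant array (6.34 to 7.21) reached the lowest naive array (7.28). By the looser rule of set means, 15.9% of all genes were below both naive sets in all 6 lines. The share separated array by array was not counted. STC2 fell by 0.93 ± 0.17 (1.90-fold, limma adjusted p = 0.0433, lower in 6 of 6 lines). In bulk RNA a lower level cannot be divided into fewer cells with the transcript and less transcript per cell.

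Both falls kept their direction under every alternative run, between -0.72 and -1.27 for ATF5 and between -0.80 and -1.22 for STC2, but the calls were not firm. With the technical axis taken out the differences were -1.11 for ATF5 (limma adjusted p = 0.0794) and -0.80 for STC2 (0.173). Both calls were lost without naive S (limma adjusted p = 0.172 and 0.220), naive K (0.290 and 0.290), low-imatinib line 1 (0.0795 and 0.0874), low-imatinib line 2 (0.0867 and 0.0989) or nilotinib line 1 (0.0579 and 0.0596), and when every array feature was tested (0.0580 and 0.0672). Without nilotinib line 2 the adjusted p was 0.0429 for ATF5 and 0.0502 for STC2. Without high-imatinib line 1, 5 genes passed, all lower (ATF5, STC2, CTH, TRIB3 and ASNS), beside 255 lower and 1487 higher of all genes. Without high-imatinib line 2, 4 did (ATF5, STC2, CTH and PSAT1), beside 107 lower and 816 higher.

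The members' counts stand beside those of all genes. In this comparison 478 genes passed higher (3.21%) and 75 lower (0.504%); after quantile normalization the split was 179 and 183. Of the 20 genes, 0 passed higher and 2 lower. An unadjusted p under 0.05 was found for 6 of them, beside 4432 of all 14884 genes. By position alone, 2 genes (EIF2AK3 and CREB3L2) had all 6 line means above both naive sets, which 17.0% of all genes did, and 3 (ATF5, STC2 and CTH) had all 6 below, which 15.9% did. The median difference of the 20 genes was -0.22, against -0.03 for all genes and 0.20 for the brightest 60% of genes. It was -0.44 after quantile normalization, where the brightest 60% were at 0.01, and -0.48 with the technical axis taken out.

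Other genes of the ATF4 arm had differences below 0 without a call. CTH had a difference of -1.65 ± 0.53 (95% interval -2.91 to -0.39, limma adjusted p = 0.106), ASNS -0.66 ± 0.24 (adjusted p = 0.132), PSAT1 -1.09 ± 0.58 (adjusted p = 0.242) and TRIB3 -0.76 ± 0.40 (adjusted p = 0.235). PHGDH had -0.43 ± 0.23 (adjusted p = 0.255), and the enzymes SHMT2 and PSPH had -0.02 ± 0.14 and 0.14 ± 0.26. Not every line was below: TRIB3 was 0.49 and PHGDH 0.23 above the naive mean in high-imatinib line 1, and PSAT1 0.01 above it in nilotinib line 2. In a fit to the 32 arrays with a random block for each set, CTH, ASNS, PSAT1, TRIB3 and PHGDH passed. They were among 10 of the 20 genes in all, beside 3660 of 14884 genes (2980 higher, 680 lower). ATF4 itself had a difference of -0.12 ± 0.10 (95% interval -0.36 to 0.12), DDIT3 0.18 ± 0.36 (-0.68 to 1.03) and ERN1 -0.15 ± 0.36. For DDIT3 and ERN1 the lines lay on both sides of the naive level, from -0.64 to 1.43 and from -0.73 to 1.08.

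Above the naive level was CREB3L2, a membrane-bound relative of ATF6 that controls secretory capacity. It was at 7.74 and 7.77 in the naive sets, 8.11 and 8.66 under low-imatinib resistance, 8.35 and 8.42 under high-imatinib resistance and 8.39 and 9.01 under nilotinib resistance. Of 24 resistant arrays, 23 were above the highest naive array (8.07). By set means, a different rule, 17.0% of all genes were above both naive sets in all 6 lines, and the share by arrays was not counted. The difference for CREB3L2 was 0.73 ± 0.20 (95% interval 0.25 to 1.22, limma adjusted p = 0.0802), so it did not pass. It was 0.38 after quantile normalization (adjusted p = 0.352) and 0.32 with the technical axis taken out (0.545). EIF2AK3, the gene of PERK, was at 7.30 and 7.23 in naive cells, 7.36 and 7.35 under low-imatinib resistance, 7.81 and 7.37 under high-imatinib resistance and 7.87 and 7.82 under nilotinib resistance, a difference of 0.33 ± 0.14 (adjusted p = 0.157). This was 0.077 after quantile normalization (0.794) and 0.090 with the technical axis taken out (0.809), and for low imatinib alone it turned negative, -0.13 and -0.14. ATF6, the other transmembrane sensor, had set means between 9.24 and 9.85 and a difference of -0.20 ± 0.17 (adjusted p = 0.435). VLDLR-AS1, an RNA antisense to the lipoprotein receptor gene VLDLR, was dim, with set means between 5.28 and 5.83 and a difference of -0.25 ± 0.12 (adjusted p = 0.210). Whether its features tell it from VLDLR was not tested.

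**Figure D3:**
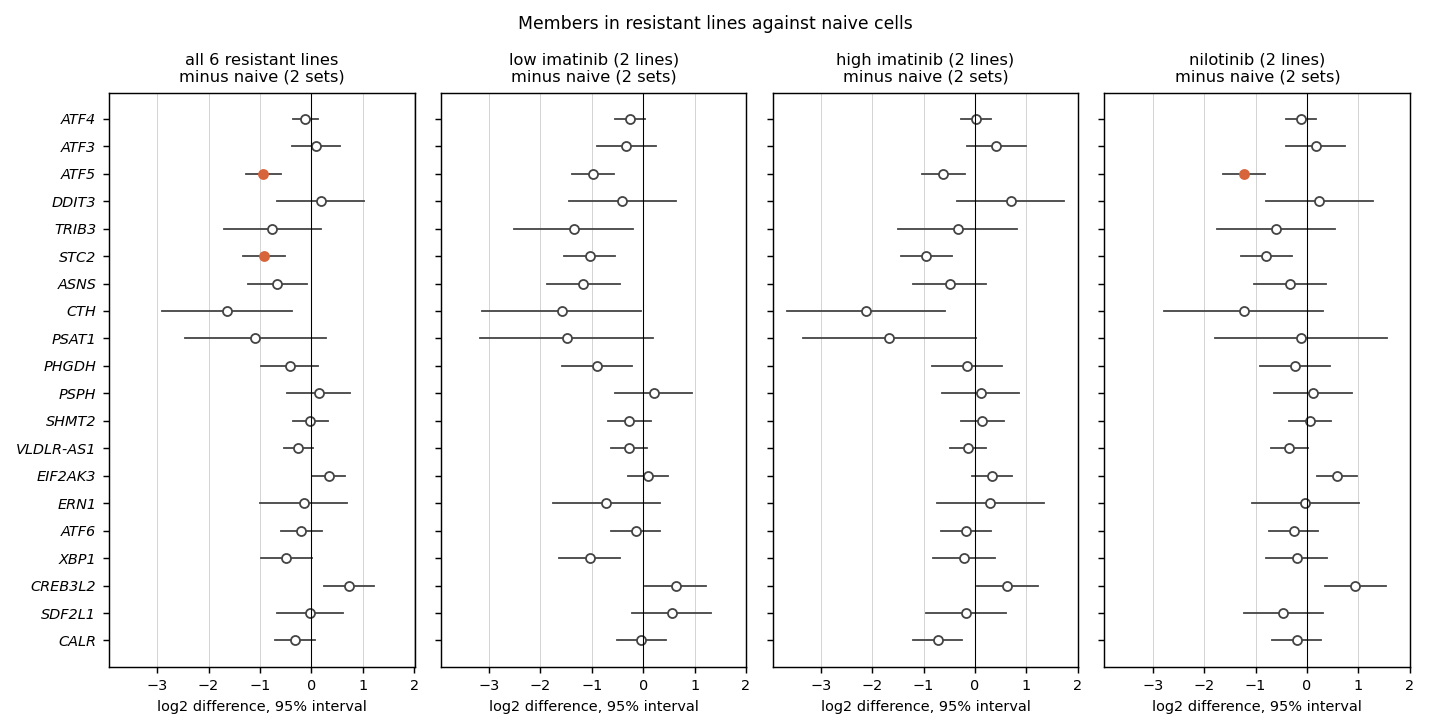
Log2 difference against the mean of both naive sets (horizontal axis) for the 20 genes (vertical axis) in all 6 resistant lines and in each resistance. Points are differences of set means, lines are 95% confidence intervals from limma, and filled points have an adjusted p under 0.05; these are ATF5 and STC2 in all lines (-0.94 and -0.93) and ATF5 in nilotinib lines (-1.22).

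The resistances were next taken singly, with the reminder that all of these comparisons share the naive sets. In the low-imatinib lines most ATF4-arm genes lay below the naive sets, but 0 of 20 genes passed, beside 0.0% of all genes. An unadjusted p under 0.05 was found for 8 of 20, beside 3215 of all 14884 genes. Set means were below both naive sets in both lines for 14 of 20 genes, against 31.0% of all genes. They were above for 3 (EIF2AK3, CREB3L2 and SDF2L1), against 31.0%. The 14 were 11 of 12 ATF4-arm genes, all but PSPH, with ERN1, XBP1 and VLDLR-AS1. DDIT3 counted by a margin far below its technical spread. Its mean rounded to 6.55 in both low-imatinib line 2 (SD 0.09) and naive S (SD 0.14). TRIB3 had a difference of -1.35 ± 0.49 (limma adjusted p = 0.184), ASNS -1.16 ± 0.30 (0.111), XBP1 -1.05 ± 0.25 (0.104), STC2 -1.04 ± 0.21 (0.0857) and ATF5 -0.97 ± 0.18 (0.0766).

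The count for low imatinib turned on how the spread was estimated. Without either high-imatinib line, whose difference from each other enters the pooled spread, 7 genes passed, all lower (ASNS, ATF5, CTH, ERN1, STC2, TRIB3 and XBP1), beside 105 lower and 600 higher of all 14884 genes. With the naive and low-imatinib sets alone in the fit, 10 passed (9 lower, and SDF2L1 higher), beside 366 lower and 1624 higher of all 14884 genes. With the set as a random block 9 did, beside 2672 of all genes (2256 higher, 416 lower).

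In the high-imatinib lines 0 of 20 passed, beside 0.0% of all genes. An unadjusted p under 0.05 was found for 5 of 20, beside 2266 of all 14884 genes. Both lines were above both naive sets for 3 genes (ATF3, EIF2AK3 and CREB3L2; 24.3% of all genes) and below for 6 (ATF5, STC2, ASNS, CTH, PSAT1 and CALR; 25.9%). CTH had the largest difference, -2.12 ± 0.65 (95% interval -3.67 to -0.58, limma adjusted p = 0.224), followed by PSAT1 with -1.67 ± 0.71 (0.331). CALR had a difference of -0.72 ± 0.20 (0.194) here, beside -0.04 for low imatinib and -0.20 for nilotinib.

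In the nilotinib lines ATF5 fell by 1.22 ± 0.18 (n = 2 lines against 2 naive sets, 95% interval -1.64 to -0.81, limma adjusted p = 0.0497). It was the 1 lower call among the 20 genes, beside 0.0537% of all genes, and 0 passed higher, beside 0.39%. The call did not hold after quantile normalization (-1.59, adjusted p = 0.0535), with the technical axis taken out (-1.45, adjusted p = 0.112) or without either naive set (adjusted p = 0.168 without S and 0.244 without K), either low-imatinib line (0.0978 each) or either nilotinib line (0.162 without line 1 and 0.0632 without line 2). With the mean of all features, equal array medians, only the groups compared or every array feature the adjusted p lay between 0.0512 and 0.0729. Both lines were above both naive sets for EIF2AK3 and CREB3L2, 2 of 20 against 32.7% of all genes, and below for 7 (ATF4, ATF5, TRIB3, STC2, CTH, VLDLR-AS1 and SDF2L1), against 34.7%. CREB3L2 had a difference of 0.94 ± 0.25 (adjusted p = 0.0763) and EIF2AK3 one of 0.58 ± 0.17 (adjusted p = 0.0824); these were 0.52 and 0.23 after quantile normalization and 0.41 and 0.27 with the technical axis taken out. PSAT1, below both naive sets in all 4 imatinib lines, had a difference of -0.12 ± 0.71 here (95% interval -1.80 to 1.56).

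By line, the median difference of the 12 ATF4-arm genes from naive was -0.90 and -0.95 under low-imatinib resistance, 0.05 and -0.49 under high-imatinib resistance and -0.34 and -0.07 under nilotinib resistance. The order held under the other scalings, except that the value of high-imatinib line 1 changed sign, to -0.22 after quantile normalization and -0.10 with the technical axis taken out, and that the low-imatinib lines exchanged places with the technical axis taken out (-1.04 and -1.02). The 7 endoplasmic reticulum genes had medians between -0.37 and 0.10 over the 6 lines, and all 6 were below 0 after quantile normalization and with the technical axis taken out. All genes together had medians between -0.05 and 0.00.

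**Figure D4:**
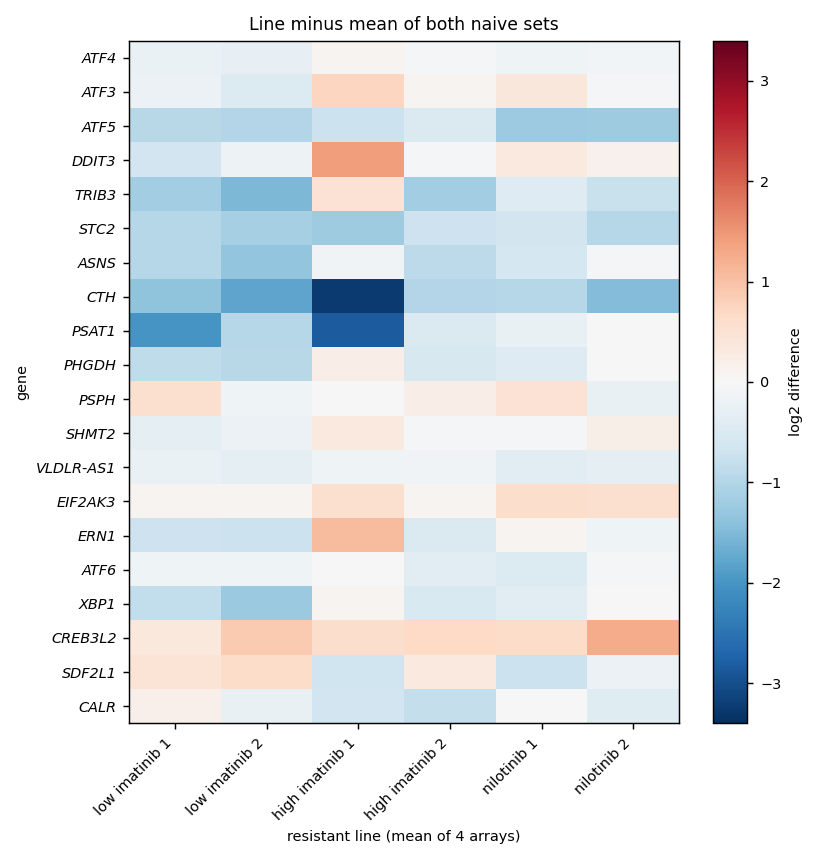
Log2 difference of each resistant line from the mean of both naive sets (colour; red higher, blue lower) for the 20 genes (rows) in 6 lines (columns). The column of high-imatinib line 1 holds the extremes, from -3.26 for CTH to 1.43 for DDIT3, and both low-imatinib columns are blue for most ATF4-arm genes.

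Between resistances no gene of the 20 passed in any of 3 comparisons. For high against low imatinib 0 of 20 and 0.0% of all genes passed, with a smallest limma adjusted p of 0.934 among the 20. An unadjusted p under 0.05 was found for 6 of 20 (5 higher, 1 lower), beside 722 of all 14884 genes. XBP1 had a difference of 0.83 ± 0.25 (95% interval 0.24 to 1.43), DDIT3 1.10 ± 0.44 (0.05 to 2.14) and CALR -0.68 ± 0.20 (-1.16 to -0.21). Without high-imatinib line 2, DDIT3, ERN1 and TRIB3 passed as higher, beside 173 higher and 97 lower of all genes, and high imatinib was then line 1 alone.

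For nilotinib against low imatinib 0 of 20 and 0.0% of all genes passed. Of the 20, 4 had an unadjusted p under 0.05, beside 1028 of all 14884 genes. The smallest limma adjusted p among the 20 was 0.625, that of XBP1 (0.84 ± 0.25). ASNS had 0.84 ± 0.30 and SDF2L1 -1.01 ± 0.33. For nilotinib against high imatinib 0 of 20 and 0.0% of all genes passed. Of the 20, 2 had an unadjusted p under 0.05, beside 943 of all 14884 genes. These 2 were ATF5 with -0.61 ± 0.18 and CALR with 0.53 ± 0.20. The number of lines limits these comparisons. The intervals above still hold differences of more than 1 log2 unit in size for XBP1, DDIT3 and CALR. For high against low imatinib this was so for other genes too, among them PSAT1 (-1.85 to 1.51) and TRIB3 (-0.14 to 2.16).

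Other genes of the same pathways came from 3 lists. In all resistant lines against naive, 4432 of all 14884 genes had an unadjusted p under 0.05. Of 43 other ATF4 targets 28 were measured, and 0 passed in all resistant lines against naive (8 at an unadjusted p under 0.05, median -0.14, which was -0.42 after quantile normalization and -0.36 with the technical axis taken out). Of 18 eIF2 kinases and their regulators 8 were measured, and 0 passed (1 at an unadjusted p under 0.05, median 0.37, which was 0.10 and 0.02 under the same settings). Of 42 other genes of the unfolded protein response 22 were measured, and 1 passed, DERL2, which encodes a channel component that moves misfolded proteins out of the endoplasmic reticulum for degradation. DERL2 was at 7.13 and 7.25 in naive S and K, 8.23 and 8.51 under low-imatinib resistance, 7.89 and 8.36 under high-imatinib resistance and 8.32 and 8.20 under nilotinib resistance. It rose by 1.06 ± 0.16 (limma adjusted p = 0.0335), with a difference of 0.61 and an adjusted p of 0.184 with the technical axis taken out; its call was also lost without naive S (0.183), naive K (0.290), either low-imatinib line (0.0747 and 0.0867) or nilotinib line 1 (0.0564), and with every array feature tested (0.0543).

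Between the high-imatinib lines most other ATF4 targets differed too. Of 28, 17 were lower and 5 higher in line 2 than in line 1, with a median of -0.39 beside -0.26 for the 20 genes and 0.04 for all genes. Of the 22 other unfolded protein genes, 7 were lower and 6 higher, with a median of -0.02. Of the 8 eIF2 kinases and regulators, 4 were higher and 0 lower. Of all genes, 19.8% were higher and 13.2% lower.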

How the data were processed

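The deposited table holds 1 summarised value per array feature and array for 32 arrays of 4 groups. The authors' values read as log2 intensities (1.24 to 14.2); the base was inferred from this range and no normalization method is given in the sources used here. Per the submitters' processing notes, Transcriptome Analysis Console 4.0 was used, and per the labels' protocols 100 ng of RNA was labelled per array with the WT PLUS kit. Array medians lay between 5.85 and 6.11. Precision is limited by the number of lines, since the arrays of a set are technical repeats.

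Of 53617 features, 16098 carried 1 symbol in the platform annotation (all matched by gene ID to RefSeq GRCh38.p14, with 0 symbols updated), 0 several and 37519 none; 779 genes had more than 1 feature. Set means (4 arrays each, 8 sets) were fitted with limma 3.58.1 under R 4.3.3 (4 residual degrees of freedom), with Benjamini-Hochberg adjustment over 14884 genes and a threshold of 0.05. Line-against-line tests used the 32 arrays (24 residual degrees of freedom). The script was tested on simulated data. The members, the lists and their tests were chosen with earlier results of these data known. Members past the threshold, and the 12 with the widest range, are given in every set; in the report, genes of other lists are named where they passed against naive, and 4 further genes in the closing section were chosen after their values were seen.

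Alternatives were the mean of all features, quantile normalization, equal array medians, leaving out the dimmest 40%, every feature, the set as a random block (consensus correlation 0.435), only the groups compared, the technical axis taken out, a replicate block, and leaving out each set. Leaving out each array was chosen after seeing the data.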

Additional observations from a re-analysis of the deposited data

Results flagged for a closer look

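Single arrays were compared with the other 7 of their group for the 20 genes in 4 groups. Of these 80 combinations, 2 were apart. The rule's rate of about 1 in 20 by chance holds only for independent arrays of 1 common spread. Each group here pools 2 sets of technical arrays, so the rate is not known. Where the sets of a group differ, a single odd array is hard to flag. In nilotinib line 2, the fourth array had ERN1 at 6.52, with the other 7 nilotinib arrays at 6.92 to 7.27. In naive K, the first array had SDF2L1 at 8.09, with the other 7 naive arrays at 8.51 to 8.86.

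For 2 genes the lines of one resistance lay above both naive sets and those of another below. The share of all genes placed in this way was not counted. Taken singly, 24.3% of all genes were above in both high-imatinib lines and 31.0% below in both low-imatinib lines. Above in both low-imatinib lines were 31.0%, and below in both nilotinib lines 34.7%. ATF3 was above in both high-imatinib lines and below in both low-imatinib lines, and high minus low imatinib was 0.74 ± 0.24 (limma adjusted p = 0.934). SDF2L1 was above in both low-imatinib lines and below in both nilotinib lines, and nilotinib minus low imatinib was -1.01 ± 0.33 (limma adjusted p = 0.645). Neither difference passed.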

How the results depend on the processing

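The replicate numbers of the lines were not treated as pairs in the main fit, since the naive sets carry no numbers. The correlations of line deviations were 0.139 between low and high imatinib, 0.188 between low imatinib and nilotinib and -0.201 between high imatinib and nilotinib. These correlations cannot tell whether lines of the same number share an origin, which was not tested. With a replicate block, 0 members passed in each comparison between resistances, as without it, and the median difference for high against low imatinib was 0.25. Against naive, the members called were 0 for all lines with every feature and 0 with the technical axis taken out, and for nilotinib 0 with the mean of all features, quantile normalization, equal array medians, every feature, only the groups compared or the technical axis taken out. With the set as a random block they were 10 for all lines, beside 3660 of all 14884 genes. For low imatinib they were 9 (beside 2672), for high imatinib 6 (1679) and for nilotinib 5 (3696). Between resistances they were 8 for high against low imatinib (413), 5 for nilotinib against low (550) and 2 against high imatinib (201). That fit takes the 32 arrays as observations, with 1 shared correlation within sets. Technical arrays thus add to its degrees of freedom. For low imatinib 10 passed with only the groups compared; for naive K against S 9 passed with the technical axis taken out. Medians of the members under quantile normalization were -0.44 for all lines, -0.54 for low imatinib, -0.47 for high imatinib, -0.41 for nilotinib and 0.23 for nilotinib against low imatinib. With the technical axis taken out they were -0.48, -0.70, -0.29 and -0.47 against naive in the same order, and -0.16 for nilotinib against high imatinib. Leaving out each set in turn gave 0 to 5 calls for all lines, 0 to 7 for low imatinib, 0 to 2 for high imatinib, 0 to 4 for nilotinib and 0 to 3 for high against low imatinib, and medians of -0.30 to -0.18, -0.51 to -0.37, -0.43 to 0.054 and -0.31 to -0.079 against naive, 0.34 to 0.43 for nilotinib against low and -0.21 to 0.19 against high imatinib. Leaving out each array gave 5 to 7 calls between the low-imatinib lines and 3 to 7 between the naive sets. The cause of these shifts was not tested. No detection calls were used, so a dim gene such as VLDLR-AS1 has no limit of detection here.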

Other observations

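GDF15, SESN2, EIF2AK4 and IMPACT, 4 genes of the other lists, differed between the high-imatinib lines and were chosen after their values were seen. GDF15, a secreted stress cytokine, was at 9.90 and 10.00 in naive S and K, 9.17 and 9.50 under low-imatinib resistance, 11.34 and 9.28 under high-imatinib resistance and 10.18 and 9.71 under nilotinib resistance. SESN2, a sestrin that restrains mTORC1, was at 9.27 and 8.46, 7.67 and 7.89, 9.69 and 8.44, and 8.76 and 8.47 in the same order. Line 2 minus line 1 of high imatinib was -2.06 ± 0.11 for GDF15 (limma adjusted p = 1.86e-16) and -1.25 ± 0.11 for SESN2 (8.15e-11). EIF2AK4, the gene of the amino acid sensor GCN2, was at 7.66 and 7.57 in naive cells, 8.06 and 7.95 under low-imatinib resistance, 7.62 and 8.40 under high-imatinib resistance and 8.13 and 8.12 under nilotinib resistance. High-imatinib line 1 was thus the 1 resistant line with EIF2AK4 at the naive level. IMPACT, an inhibitor of GCN2, was at 7.52 in high-imatinib line 1 and 8.46 in line 2. Line 2 minus line 1 was 0.78 ± 0.11 for EIF2AK4 (limma adjusted p = 3.85e-07) and 0.94 ± 0.13 for IMPACT (4.05e-07). EIF2AK3, another kinase gene upstream of ATF4, was lower in line 2 (-0.44 ± 0.14, limma adjusted p = 0.0134), and the ATF4-arm genes CTH, PSAT1 and STC2 were higher there, so neither the kinases nor the targets all ran 1 way. These tests measure technical spread only.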
